A study of Sus scrofa with 8 samples.

Results

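Potassium channel genes were followed in porcine pancreatic ductal organoids (PPDO), 3-dimensional cultures grown from ducts that were picked by hand from digested pig pancreas. The set was fixed by gene symbol alone. It holds every gene of the deposited table whose symbol starts with KCN, followed by family letters and a number, which gave 89 genes of 30282. They carry 87 symbols, because KCNMB1 and KCNS3 each stand for 2 gene identifiers, and they were collected from 171 entries of the table, since isoform entries and entries extended beyond the annotated gene end were summed per gene. The set covers the pore-forming families and the auxiliary subunits named after them (KCNE, KCNAB, KCNMB and KCNIP).

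The RNA came from 4 PPDO lines, 1 embryonic (Em), 2 early postnatal (EPN1 and EPN2) and 1 late postnatal (LPN), made from German landrace pigs. Each line gave 1 library in complete medium and 1 in differentiation medium, so that there were 8 libraries of poly(A) RNA and n = 4 per medium. Both media contained the basal mixture with N2, B27 without vitamin A, A83-01, Y-27632, nicotinamide and N-acetyl-L-cysteine. Complete medium additionally held prostaglandin E2, WNT3a, R-spondin1, noggin, FGF10, EGF and gastrin I, and differentiation medium, in which the organoids were kept for a week, lacked them. The library totals were 45854950, 40553593, 42788581 and 45980396 counts in complete medium and 47910657, 46091016, 41572524 and 45802103 counts in differentiation medium, in the order Em, LPN, EPN1 and EPN2. Values per library are given in that order throughout, as CPM, the read count per 1000000 counts of the library, on library sizes scaled by TMM, the edgeR method that corrects for differences in composition. The sources do not say that the libraries of a line in the 2 media came from more than 1 culture each. The errors and p-values below therefore measure the spread among these 4 lines. With the line as a block in the model, they measure how the change with medium varied among the lines.

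Potassium channels let potassium leave the cell down its gradient and thereby keep the cell interior negative. In secretory epithelia such as the pancreatic duct, this voltage drives chloride and bicarbonate out through apical anion channels, above all CFTR, while the sodium pump and the sodium-potassium-chloride cotransporter bring potassium back across the basolateral side. The voltage-gated, calcium-activated, inwardly rectifying and tandem-pore-domain (K2P) families contribute to that outflow, and many pore subunits change their gating when a small auxiliary subunit joins them.

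The libraries held the transcripts of duct epithelium. Of 12 ductal and epithelial markers listed, 11 were found and all 11 had a mean above 1 CPM in at least 1 medium. KRT8, a keratin of simple epithelia, stood at 3462, 3056, 2732 and 2270 CPM in complete medium and at 4902, 1458, 3605 and 425 CPM in differentiation medium. The EPN2 library in differentiation medium was the lowest of all 8 for 8 of the 11 markers, among them KRT7 (522 CPM), KRT8, KRT18 (45.2 CPM), EPCAM (228 CPM) and CFTR (2.96 CPM), so counts of calls are also given without it. The other 3 were not lowest there. The adhesion protein gene CDH1, at 2502 CPM in that library, was above every library in complete medium (921 to 1746 CPM). It went up in all 4 lines (edgeR adjusted p = 0.0646, and 0.0172 with the line as a block). The transcription factor genes SOX9 and ONECUT1 stood there at 74.3 and 0.117 CPM. ONECUT1 was lower still in EPN2 in complete medium (0.0678 CPM) and also went up in all 4 lines (edgeR adjusted p = 0.463, and 0.0145 with the block). Markers of other cells were read as well. DES, CDH5, CD3E, SOX10, STMN2, ELAVL4 and PNLIP had at most 3 counts in every library, the 10 stromal and smooth muscle markers summed to between 1.02 and 9.83 CPM, and the hormone GCG was seen only in the Em line, where it reached 2.01 CPM in complete medium and 17.2 CPM after the change of medium. The 5 endothelial markers summed to 16.1 to 44.7 CPM, with PECAM1 at 7.96 to 17.6 CPM, KDR at 3.36 to 33.8 CPM, and TEK at 12.4 CPM in the EPN1 line in differentiation medium and 0.501 CPM at most elsewhere. The 5 immune markers summed to 105 to 232 CPM, most of it LCP1, with CD68 at 3.24 to 49.7 CPM and PTPRC at 2.16 CPM or less, and the 6 acinar markers found were led by CTRC, at 124 to 319 CPM. In bulk RNA, fewer cells of a type and less RNA per cell cannot be told apart.

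Of the 89 potassium channel genes, 35 had a mean above 1 CPM in at least 1 medium, which is 39.3%, and the same held for 13195 of all 30282 genes, or 43.6%. No library held a count of 7 genes, and 24, those included, never exceeded 3 counts, while the rest had more counts but a mean at or below 1 CPM in both media. The upper limit for a gene without a count, taken as 3 counts, was 0.0618 to 0.0731 CPM in these libraries and covers counting error only. The threshold is not per length, so it says which genes were read often and not which channel was most abundant. Just inside it were KCNG3 and KCNK10, both with a higher mean of 1.01 CPM, and KCNK2 with 1.07 CPM. Just outside were KCNH2 (0.987 CPM), KCNJ4 (0.940 CPM) and KCNK9 (0.846 CPM). The 35 genes were 10 of 38 voltage-gated pore subunits, 8 of 15 inward rectifiers, 6 of 14 K2P channels, 4 of 8 calcium- or sodium-activated pore subunits and 7 of 14 auxiliary subunits. The heat map of levels by library shows 33 of them.

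**Figure D1:**
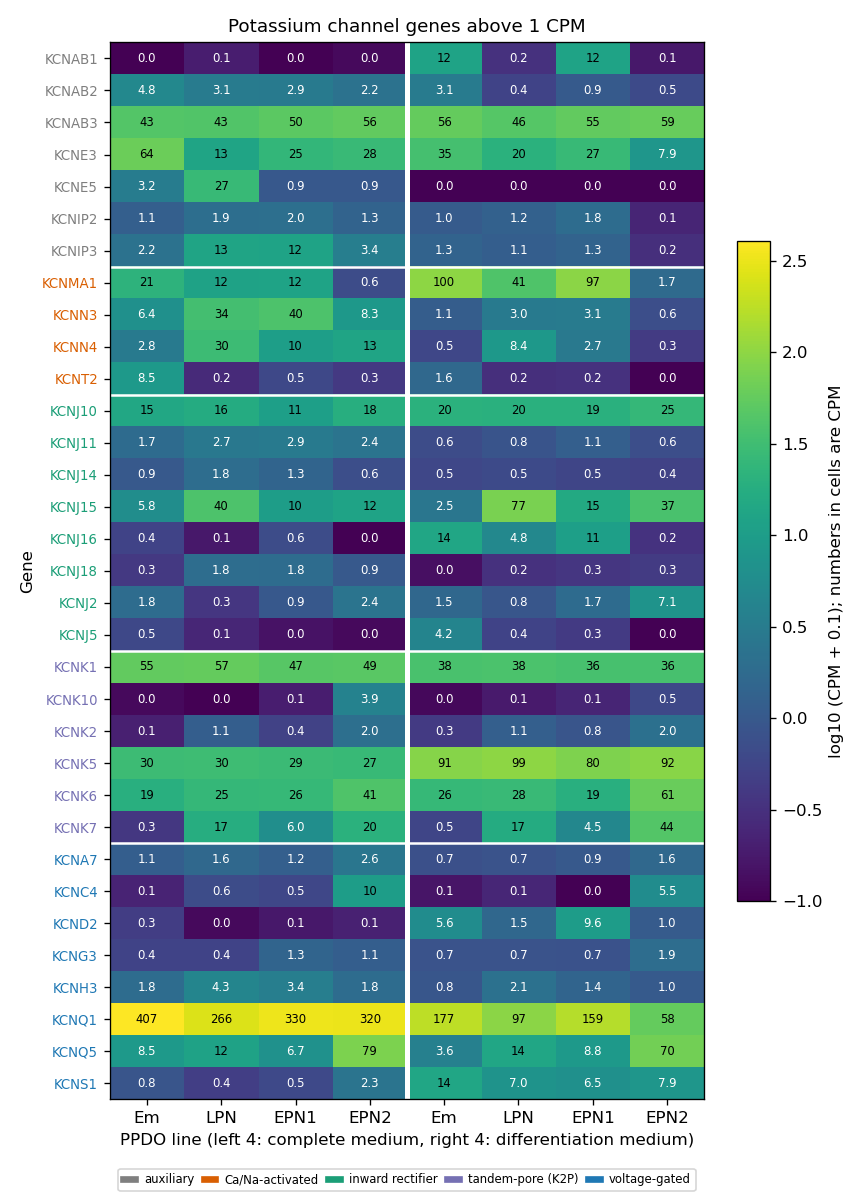
Levels of 33 of the 35 potassium channel genes with a mean above 1 CPM in at least 1 medium, 1 gene per line of the map and 1 library per column, with the 4 lines in complete medium on the left and the same 4 in differentiation medium on the right. Colour is log10 (CPM + 0.1), printed values are CPM, and gene names are coloured by family. KCNQ1 is bright in all 8 columns and dimmer on the right, KCNK5 is brighter on the right in every line, and KCNK7 and KCNQ5 differ mainly between lines.

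Summed over the 89 genes, the level was 719, 672, 651 and 733 CPM in complete medium and 625, 554, 595 and 551 CPM in differentiation medium, so every library in differentiation medium was below every library in complete medium. KCNQ1 set that order. Without this gene the sums were 312, 406, 321 and 413 CPM against 449, 456, 436 and 493 CPM, and every library in differentiation medium was above every library in complete medium.

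The media were compared across 14475 genes with enough counts, 39 of them potassium channel genes, with edgeR's quasi-likelihood test and Benjamini-Hochberg adjustment over all 14475. In 8 of the 39 (20.5%) the adjusted p was below 0.05, where 6.97% of all genes tested were past it. In differentiation medium 3 rose (KCNK5, KCND2 and KCNS1, 7.69% of the 39 against 2.87% of all genes) and 5 fell (KCNQ1, KCNN3, KCNJ11, KCNK1 and KCNA3, 12.8% against 4.1%). The median log2 fold change was -0.50 over the 39 genes and 0.011 over all genes tested, with 18 values above and 21 below 0. With the line as a block in the model, which compares the media within each line, 18 of the 39 passed (46.2%, against 19.9% of all genes). Of them 6 rose, KCNMA1, KCNJ16 and KCNK9 joining those named (9.48% of all genes rose in this fit), and 12 fell, KCNE5, KCNIP3, KCNAB2, KCNN4, KCNJ18 and KCNH3 among those added (10.4% of all genes fell). A gene that passed the filter on low counts only through the medium in which it was read often had to differ between media. KCND2 and KCNA3 were such genes among the 8, and KCNE5 and KCNJ16 were among those added with the block. These shares therefore describe the genes tested and not the whole family. At an unadjusted p under 0.05 without the block there were 27.3% of all genes tested, which is the background for the unadjusted counts below.

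Without the test, 10 of the 35 genes above 1 CPM were higher in differentiation medium in all 4 lines (28.6%, against 24.9% of the 13195 genes above 1 CPM), and 15 were lower in all 4 (42.9%, against 24.7%). A change of at least 2-fold in every line was seen upwards in KCNK5, KCNS1, KCND2, KCNJ16 and KCNMA1 (14.3%, against 1.97%) and downwards in 7 genes, among them KCNQ1, KCNN3, KCNN4, KCNJ11, KCNJ18 and KCNE5 (20.0%, against 3.02%). The libraries of the media did not overlap for 11 of the 35 (31.4%, against 19.8%), with KCNK5, KCND2, KCNS1 and KCNJ10 higher and KCNQ1, KCNN3, KCNJ11, KCNK1, KCNE5, KCNIP3 and KCNJ14 lower. Of the genes named in this paragraph so far, KCND2, KCNJ16, KCNJ11, KCNJ18, KCNE5, KCNIP3 and KCNJ14 had a mean above 1 CPM only in the medium in which they were high. Such a gene had to differ between media, so these shares describe the genes above 1 CPM and not the whole family. KCNAB1 and KCNK10 were above 1 CPM but had too few libraries with counts for the test.

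**Figure D2:**
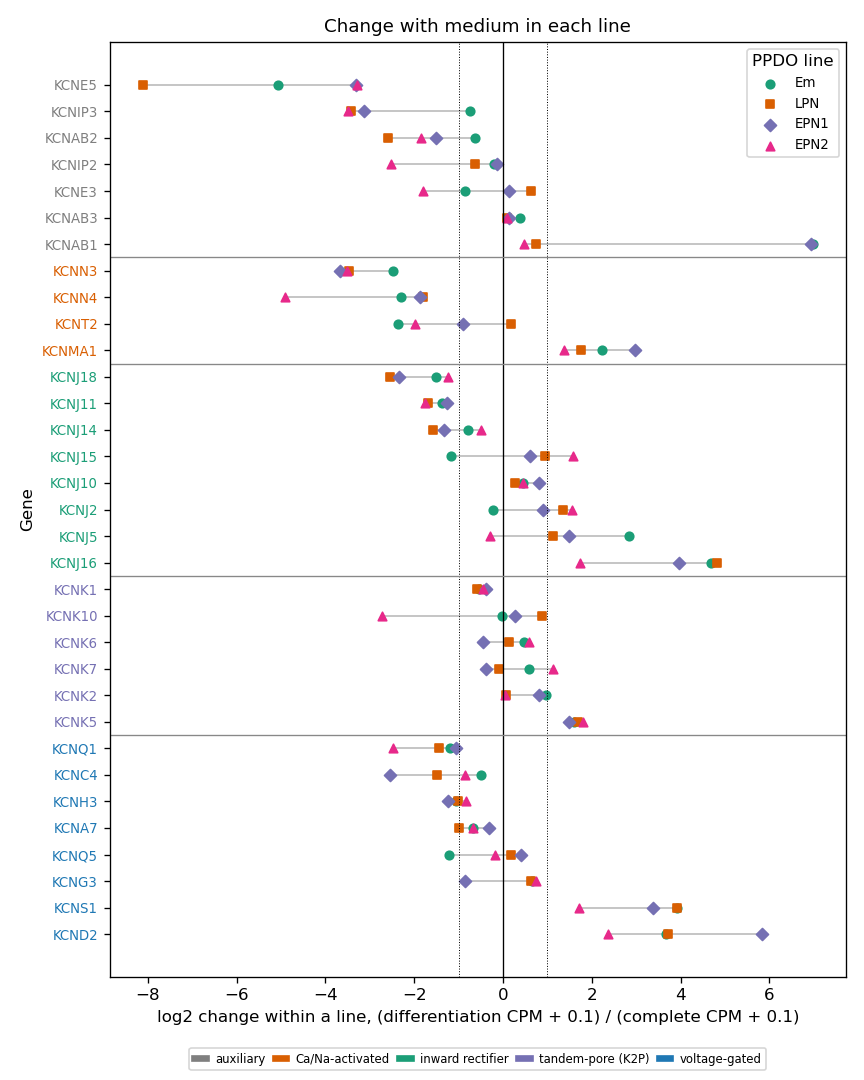
Change with medium within each line for 33 of the 35 genes above 1 CPM, as log2 of (CPM + 0.1) in differentiation over (CPM + 0.1) in complete medium; each symbol is 1 line, gene names are coloured by family, and dotted lines mark 2-fold. Symbols of KCNK5 (1.49 to 1.80) and KCNK1 (-0.59 to -0.39) lie close together, whereas those of KCNK10 and KCNAB1 spread over several log2 units.

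Among the voltage-gated pore subunits, KCNQ1 fell in differentiation medium and KCND2 and KCNS1 rose. KCNQ1 (ENSSSCG00000039556, RefSeq span chr2:1675323-1989110 in Sscrofa11.1) forms a channel that epithelia and heart muscle use with different KCNE subunits. It was read at 407, 266, 330 and 320 CPM in complete medium and at 177, 97.1, 159 and 57.8 CPM in differentiation medium. The lowest library in complete medium was above the highest in differentiation medium, and EPN2 showed the largest drop. The mean went from 331 ± 58.1 to 123 ± 55.0 CPM (SD, n = 4), a log2 fold change of -1.43 (SE 0.34, edgeR adjusted p = 0.046). The call was lost in 7 of 8 fits that left out 1 library, with the edgeR adjusted p at most 0.120, and it was kept without the EPN2 library in differentiation medium, where the log2 fold change was -1.20. Its RefSeq span overlaps those of 2 long non-coding RNAs. The paper lists a stranded mRNA library kit, but whether the counting used strand is not given in the sources used here.

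KCNS1 (ENSSSCG00000007385, chr17:47483943-47491071) encodes a silent subunit that carries no current alone and modifies channels of the KCNB family. It stood at 0.801, 0.365, 0.529 and 2.33 CPM in complete medium and at 13.5, 6.97, 6.47 and 7.87 CPM in differentiation medium. The media did not overlap, and EPN2 started highest and moved least. The log2 fold change was 3.11 (SE 0.63, edgeR adjusted p = 0.0315). KCNB2, a gene of that family, had no count in any library. KCND2 (ENSSSCG00000016621, chr18:26139457-26624210), the pore of a rapidly inactivating current known from neurons and heart, stood at 0.346, 0.0244, 0.0721 and 0.113 CPM in complete medium and at 5.59, 1.52, 9.63 and 1.00 CPM in differentiation medium. Every line in differentiation medium was above every library in complete medium, with Em and EPN1 highest. The log2 fold change was 4.96 (SE 1.04, edgeR adjusted p = 0.035). KCND2 passed the filter on low counts only through differentiation medium, so it had to differ between media.

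KCNA3, a channel best known from lymphocytes, was read at 17, 24, 12 and 20 counts in complete medium and at 2, 0, 0 and 0 counts in differentiation medium. Although below 1 CPM throughout, it fell in edgeR (adjusted p = 0.0229). It passed the filter on low counts only through complete medium, so it had to differ between media. With differentiation medium at the floor of 3 counts per library, the mean was at least 6.45-fold lower. The immune marker PTPRC stood at 2.16, 0.706, 0.529 and 0 CPM in complete medium and at 0.0412, 0.376, 0.430 and 0 CPM in differentiation medium, and CD3E had at most 1 count in any library. The part of other cells in the KCNA3 difference was not tested.

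Of the 14 voltage-gated subunits tested, 2 rose and 2 fell, where 2.87% and 4.1% of all genes did, and with the line as a block KCNH3 passed as well. KCNH3 stood at 1.82, 4.31, 3.39 and 1.79 CPM in complete medium and 0.825, 2.09, 1.38 and 0.957 CPM in differentiation medium, with a log2 fold change of -1.10 under the block (edgeR adjusted p = 0.0319, without it 0.159). The media overlapped while each line went down. KCNA7 did not pass in either edgeR fit, with a log2 fold change of -0.72 (SE 0.43, edgeR adjusted p = 0.307).

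The K2P channels, which pass a background current at rest, held the most regular change of the set. KCNK5 (ENSSSCG00000025423, chr7:34617948-34656705) encodes an acid-inhibited channel that opens in alkaline surroundings and is known from bicarbonate-handling epithelia. It stood at 29.8, 30.4, 28.6 and 26.5 CPM in complete medium and at 91.1, 98.7, 80.4 and 92.5 CPM in differentiation medium. The lines were nearly level within each medium and the media were far apart. The mean rose from 28.8 ± 1.71 to 90.7 ± 7.57 CPM (SD, n = 4), a log2 fold change of 1.65 (SE 0.11, edgeR adjusted p = 0.00221). It was the only potassium channel gene named here that passed in each of the 8 fits that left out 1 library, with log2 fold changes of 1.61 to 1.71 and edgeR adjusted p values of 0.00561 to 0.0178.

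KCNK1 (ENSSSCG00000010163, chr14:57268064-57319338), a weakly conducting member of the same family, stood at 54.9, 57.2, 47.1 and 48.8 CPM in complete medium and at 37.7, 38.0, 35.9 and 35.9 CPM in differentiation medium. The media did not overlap, though the step was smaller than 2-fold in every line. The mean fell from 52.0 ± 4.85 to 36.9 ± 1.10 CPM, with a log2 fold change of -0.50 (SE 0.11, edgeR adjusted p = 0.0373). Within the family, KCNK6 stood at 18.7, 25.1, 26.2 and 40.7 CPM in complete medium and at 25.9, 27.6, 19.1 and 60.9 CPM in differentiation medium, highest in EPN2 both times, and its log2 fold change was 0.27 (SE 0.39, edgeR adjusted p = 0.686). KCNK9 passed only with the line as a block (log2 fold change 1.78, edgeR adjusted p = 0.0412, without it 0.434), at 2.24 CPM in the EPN2 line in differentiation medium and below 1 CPM elsewhere. Of its counts, 61.3% lay in entries extended past the gene end. Of the 6 K2P genes tested, 1 rose and 1 fell (2.87% and 4.1% of all genes).

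**Figure D3:**
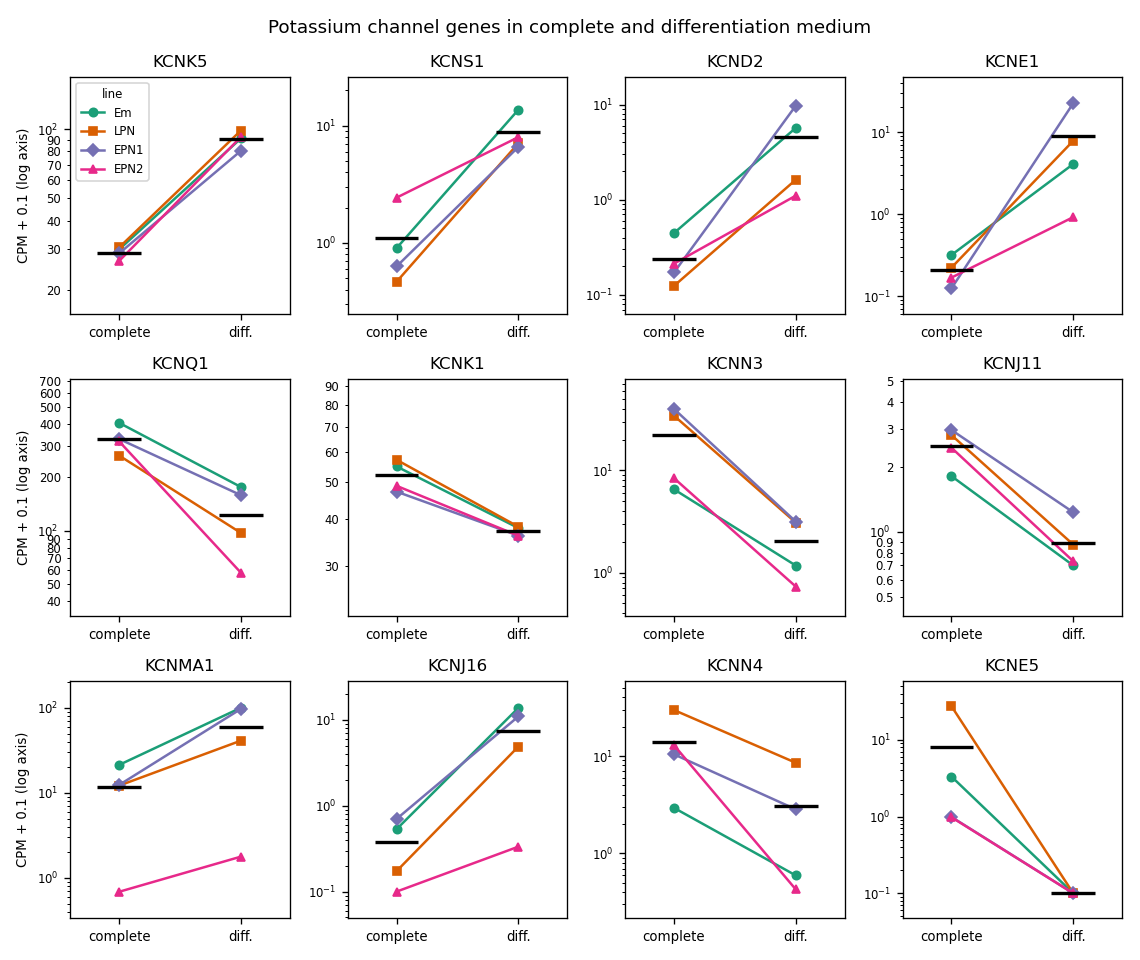
The levels of 12 genes in complete and differentiation medium (diff.), as CPM + 0.1 on a log axis; each coloured line joins the libraries of 1 PPDO line, and black bars are the means of the 4 libraries, to which 0.1 was added likewise. The top panels and KCNMA1 and KCNJ16 slope up in all 4 lines, the others slope down, and in KCNMA1 and KCNJ16 the EPN2 line runs far below the rest in differentiation medium.

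Inward rectifiers conduct best near the resting potential and help to hold it. KCNJ11 (ENSSSCG00000042162, chr2:41756637-41760340), the pore of the ATP-sensitive channel of beta cells, stood at 1.71, 2.70, 2.86 and 2.35 CPM in complete medium and at 0.598, 0.772, 1.13 and 0.630 CPM in differentiation medium. It was lower in every line without overlap, with a log2 fold change of -1.62 (SE 0.34, edgeR adjusted p = 0.0342). Its regulatory partner ABCC8, the sulfonylurea receptor, had 2, 0, 2 and 4 counts and then 7, 0, 0 and 1 counts, and ABCC9 had none, so the partner was at or near the limit of detection at this depth.

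KCNJ16 encodes a subunit that is silent alone and joins KCNJ10 or KCNJ15, as in the kidney tubule. It stood at 0.433, 0.0731, 0.601 and 0 CPM in complete medium and at 13.6, 4.78, 10.8 and 0.233 CPM in differentiation medium. Em, LPN and EPN1 moved clear of complete medium, whereas EPN2 stayed within its range. The gene passed with the line as a block (log2 fold change 4.94, SE 0.44, edgeR adjusted p = 0.00856), and without the block the edgeR adjusted p was 0.0866, or 0.0491 when the EPN2 library in differentiation medium was left out. Both possible partners were read in each library. KCNJ10 stood at 14.7, 16.3, 10.9 and 18.4 CPM in complete medium and at 20.0, 19.7, 19.4 and 25.3 CPM in differentiation medium, with a log2 fold change of 0.48 (SE 0.19, edgeR adjusted p = 0.158). KCNJ15 stood at 5.76, 40.1, 10.02 and 12.4 CPM against 2.49, 77.1, 15.4 and 37.5 CPM (log2 fold change 0.96, SE 0.96, edgeR adjusted p = 0.551). The media did not overlap for KCNJ10, and for KCNJ15 the Em line went down while the others went up. All counts of KCNJ10, and 30.7% of those of KCNJ15, lay in entries extended past the gene end.

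KCNJ18, a close copy of KCNJ12 with which it can share reads, is uncertain for that reason and passed in edgeR only with the block. It stood at 0.303, 1.83, 1.78 and 0.904 CPM and then at 0.0412, 0.229, 0.271 and 0.327 CPM (log2 fold change with the block -2.45, edgeR adjusted p = 0.0195, without it 0.0845), with 79.8% of its counts in extended entries. KCNJ14, a strong rectifier, stood at 0.931, 1.83, 1.35 and 0.633 CPM against 0.495, 0.542, 0.475 and 0.420 CPM, without overlap (log2 fold change -1.29, SE 0.39, edgeR adjusted p = 0.0858). KCNJ2, a rectifier that holds the resting potential of muscle, was highest in EPN2 in both media and did not pass (log2 fold change 1.07, SE 0.84, edgeR adjusted p = 0.439). Of the 8 inward rectifiers tested, none rose and 1 fell (2.87% and 4.1% of all genes). At an unadjusted p under 0.05 there were 5 of the 8, beside 27.3% of all genes.

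Calcium-activated channels link a calcium signal to potassium outflow. Of the 5 calcium- or sodium-activated pore subunits tested, none rose and 1, KCNN3, fell (2.87% and 4.1% of all genes), and with the line as a block 1 rose and 2 fell (9.48% and 10.4%). KCNN3 (ENSSSCG00000006542, chr4:94913631-95112845), a small-conductance channel, stood at 6.43, 34.2, 39.8 and 8.29 CPM in complete medium and at 1.07, 2.98, 3.05 and 0.630 CPM in differentiation medium. LPN and EPN1 were high and Em and EPN2 low in both media, and all 4 lines ended below the lowest library in complete medium. The log2 fold change was -3.52 (SE 0.81, edgeR adjusted p = 0.0423). KCNN4, the intermediate-conductance channel described in secretory ducts, stood at 2.84, 29.6, 10.3 and 12.8 CPM and then at 0.495, 8.43, 2.74 and 0.327 CPM. It was lower in each line while the media overlapped, and it passed only with the line as a block (log2 fold change -2.72, SE 0.64, edgeR adjusted p = 0.0398, without the block 0.232).

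KCNMA1 encodes the large-conductance channel that opens with both calcium and voltage and is known from the apical side of duct cells. Its levels were 21.3, 12.1, 12.3 and 0.588 CPM in complete medium and 100.3, 41.1, 97.2 and 1.68 CPM in differentiation medium. The order of the lines was Em, EPN1, LPN and EPN2 in both media, and the EPN2 line in differentiation medium was below the other lines in complete medium. With the line as a block the gene rose (log2 fold change 2.17, SE 0.27, edgeR adjusted p = 0.0126), and without it the spread among lines left an edgeR adjusted p of 0.243. The regulatory subunits of this channel were sparse: KCNMB1 had at most 3 counts in every library, KCNMB3 at most 6 and KCNMB4 at most 20, and LRRC26, an auxiliary subunit of secretory epithelia, stood at 1.41, 4.19, 4.28 and 4.79 CPM and then at 5.50, 5.01, 7.21 and 7.49 CPM (log2 fold change 0.78, SE 0.39, edgeR adjusted p = 0.236).

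Auxiliary subunits set which current a pore carries. None of the 6 tested passed in the model of medium alone, where 2 had an unadjusted p under 0.05 (27.3% of all genes), and 3 passed with the block, all lower (10.4% of all genes were lower in that fit). KCNE5, an inhibitor of KCNQ1 channels, had 3.23, 27.4, 0.889 and 0.881 CPM in complete medium and no count in differentiation medium. All lines thus lost it, with a mean at least 123-fold lower when the empty libraries are set to 3 counts each (edgeR adjusted p = 0.018 with the block, 0.0575 without). The LPN line held most of the level, and without its library in complete medium the mean was at least 25.4-fold lower, as computed after the data were seen. Of the counts, 81.2% lay in extended entries, without which the gene had too few to be tested. KCNIP3, a calcium-binding partner of the KCND family, stood at 2.23, 12.6, 12.4 and 3.37 CPM and then at 1.30, 1.08, 1.31 and 0.210 CPM, without overlap (with the block log2 fold change -2.89, edgeR adjusted p = 0.0318, without it 0.0587). KCNAB2, a cytoplasmic partner of the KCNA family, stood at 4.76, 3.12, 2.88 and 2.19 CPM against 3.05, 0.438, 0.950 and 0.537 CPM (with the block -1.75, edgeR adjusted p = 0.0415, without it 0.213).

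KCNE3, which holds KCNQ1 open in gut and airway epithelium, showed no common direction. It stood at 63.7, 12.9, 24.8 and 27.8 CPM in complete medium and at 34.9, 20.0, 27.3 and 7.87 CPM in differentiation medium. Em and EPN2 went down and LPN and EPN1 up, and the log2 fold change was -0.52 (SE 0.56, edgeR adjusted p = 0.583). KCNIP2, a partner of the KCND family like KCNIP3, stood at 1.15, 1.92, 1.97 and 1.29 CPM and then at 0.989, 1.21, 1.79 and 0.140 CPM, lower in each line with the media overlapping (log2 fold change -0.62, SE 0.64, edgeR adjusted p = 0.569). KCNAB3 stood between 43.0 and 58.8 CPM in all 8 libraries. KCNAB1, another cytoplasmic partner of the KCNA family, was close to 0 in complete medium and stood at 12.4, 0.229, 12.1 and 0.0700 CPM in differentiation medium, high only in Em and EPN1, and had too few libraries with counts to be tested over all 8. The stromal collagen COL3A1 was high in the same libraries, at 5.03, 0.167, 6.06 and 0.0467 CPM in differentiation medium against 0.0487 CPM at most in complete medium. The summed stromal markers were 9.83, 1.38, 7.24 and 1.19 CPM in differentiation medium and 7.01, 2.92, 4.81 and 1.02 CPM in complete medium. PDGFRB, the most abundant over the 8 libraries, went the other way, with 4.85, 2.34, 3.32 and 0.429 CPM in complete and 0.825, 0.480, 0.204 and 0.0233 CPM in differentiation medium (edgeR adjusted p = 0.016 with the block, 0.121 without). KCNMA1, KCND2 and KCNJ16 also had their highest levels in the Em and EPN1 lines. The part of other cells in these differences was not tested.

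KCNE1, the subunit that slows KCNQ1 in heart and inner ear, carries no symbol in the deposited table and therefore lies outside the 89 genes. It was found by its gene identifier (ENSSSCG00000012049) and is named here after its values were seen. It stood at 0.216, 0.122, 0.0240 and 0.0678 CPM in complete medium and at 3.98, 7.74, 22.4 and 0.817 CPM in differentiation medium. Every line went up without overlap, most in EPN1 and least in EPN2. KCNE1 passed the filter on low counts only through differentiation medium, so it had to differ between media. The log2 fold change was 6.30 (SE 1.16, edgeR adjusted p = 0.0249), and the call was lost in 4 of 8 fits that left out 1 library, with log2 fold changes of 5.24 to 6.92 over the 8 and an edgeR adjusted p of at most 0.0814. KCNQ1 thus fell in the libraries in which KCNE1 rose and KCNE5 was no longer counted. KCNH1, found in the same way, stood at 0.0216, 4.48, 1.49 and 9.29 CPM and then at 0, 0.0417, 0.0452 and 2.08 CPM, lower in each line with the media overlapping, and passed only with the block (log2 fold change -4.14, edgeR adjusted p = 0.0338, without it 0.356). KCNE2 and KCNA5 were not found by symbol or identifier and were not analysed here.

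The calls in the model of medium alone rested on few libraries. The fits that left out 1 library used that model, so the calls with the block were not tested in this way. Leaving out 1 library at a time left 1 to 7 potassium channel genes past the threshold in place of 8, and only KCNK5 remained without the LPN or EPN1 library of either medium. Over all genes those same omissions left 168 (complete medium) and 177 (differentiation medium) calls without LPN, and 163 and 70 without EPN1, in place of 1009. Without the complete-medium library of Em or of EPN2, 4 and 6 of the 8 passed and no other potassium channel gene did. Without the differentiation-medium library of Em, 3 potassium channel genes passed, of which 2 (KCNK5 and KCNA3) were among the 8 and KCNAB2 was added. Without that of EPN2, 7 passed, of which 5 were among the 8, and KCNJ16 and KCNAB1 were added. Among the genes called, KCNA3 passed in 4 of the 8 fits, KCND2, KCNS1 and KCNN3 in 2 each, and KCNQ1, KCNJ11 and KCNK1 in 1 each, all keeping their direction.

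The shares of the variance between lines and between media were set beside those of all genes above 1 CPM. There were more lines than media, so random variation alone would give the lines the larger share. The shares therefore do not tell whether lines or media differed more. Over the 35 genes above 1 CPM, the median share of the variance of log2 (CPM + 0.1) was 51.6% between lines and 35.6% between media, against 48.7% and 26.2% over all genes above 1 CPM. The share of the lines was the larger in 18 of the 35 genes (51.4%), less often than over all genes above 1 CPM (63.5%). It was highest for KCNK7 (98.0%), KCNQ5 (95.1%), KCNK2 (91.7%), KCNC4 (88.3%) and KCNJ15 (85.7%), and lowest for KCNK5 (0.760%), KCNK1 (8.63%) and KCNS1 (9.11%). Each line is 1 preparation with 1 library per medium, so animal and culture cannot be told apart, nor can stage for Em and LPN. EPN1 and EPN2 are both early postnatal, so a difference between these lines is not one between the stages named.

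KCNQ5, a relative of KCNQ1, stood at 8.53, 11.9, 6.71 and 79.4 CPM in complete medium and at 3.59, 13.5, 8.84 and 70.3 CPM in differentiation medium. EPN2 was far above the others both times. The K2P gene KCNK7 stood at 0.281, 17.4, 5.96 and 20.1 CPM and then at 0.474, 16.5, 4.52 and 44.0 CPM, in the order EPN2, LPN, EPN1 and Em in both media. KCNC4, a pore of fast delayed rectifiers, was largely limited to EPN2 (10.1 and 5.51 CPM, against 0.585 CPM at most in the other lines). KCNT2, a sodium-activated channel, was instead highest in Em, with 8.51 CPM in complete medium and 1.57 CPM in the other, against 0.505 CPM at most in the remaining lines. None of these passed in either edgeR fit for the medium.

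**Figure D4:**
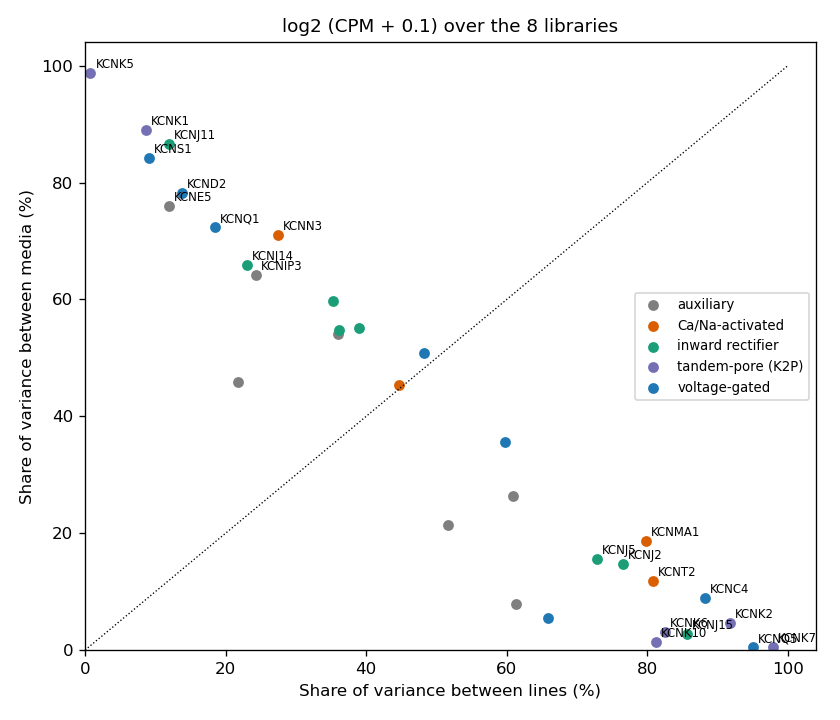
Shares of the variance of log2 (CPM + 0.1) over the 8 libraries that lay between lines (x axis, %) and between media (y axis, %) for 33 of the 35 genes above 1 CPM, coloured by family; the dotted line marks equal shares, and genes past 70% for lines or 60% for media are named. KCNK5 sits at the top left with 98.8% between media, and KCNK7 and KCNQ5 at the bottom right with over 95% between lines.

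Genes that handle potassium together with the channels were taken from lists. Of 14 partner subunits found, 5 could be tested and none passed (1 at an unadjusted p under 0.05, beside 27.3% of all genes). With the block HCN3, a pacemaker channel gene, was higher (3.66, 2.56, 2.76 and 4.18 CPM against 6.12, 6.70, 5.16 and 6.63 CPM, edgeR adjusted p = 0.0394). Of 23 pump and cotransporter genes listed, 18 were found and 13 tested. None rose and 2 fell, where 4.1% of all genes fell: ATP1B2 (log2 fold change -1.98, SE 0.45, edgeR adjusted p = 0.0423) and FXYD1 (-3.17, SE 0.76, edgeR adjusted p = 0.0457), a beta subunit and a small regulator of the sodium pump, both with means under 2 CPM. With the block FXYD1 did not pass (edgeR adjusted p = 0.0533), and ATP12A, a proton-potassium pump, rose, from 0.0216, 0.0244, 0.120 and 3.34 CPM to 0.783, 7.18, 1.15 and 16.0 CPM (log2 fold change 4.02, SE 0.93, edgeR adjusted p = 0.0387, without the block 0.307). SLC12A2, the sodium-potassium-chloride cotransporter, stood at 215, 149, 62.3 and 366 CPM against 39.0, 70.4, 58.3 and 64.9 CPM, lower in each line (log2 fold change -1.77, SE 0.49, edgeR adjusted p = 0.0671). The median log2 fold change of the 13 was -0.055, beside 0.011 for all genes tested.

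Among 9 regulators found of 10 listed, 1 rose and 1 fell (2.87% and 4.1% of all genes), with a median log2 fold change of 0.077. With the block 2 fell (10.4% of all genes), NEDD4L, a ubiquitin ligase that lowers the surface number of several channels, being added, at 218, 150.3, 362 and 114 CPM against 154, 89.2, 139 and 76.8 CPM (log2 fold change -0.80, SE 0.17, edgeR adjusted p = 0.0331, without the block 0.188). SGK1, a kinase that raises the surface number of several channels including KCNQ1, stood at 74.0, 71.9, 71.9 and 123 CPM in complete medium and at 315, 224, 167 and 354 CPM in differentiation medium. The lowest library in differentiation medium was above the highest in complete medium (log2 fold change 1.64, SE 0.29, edgeR adjusted p = 0.0227). OXSR1, a kinase that activates SLC12A2, stood at 133, 143, 205 and 78.1 CPM against 59.7, 61.4, 59.3 and 64.7 CPM (log2 fold change -1.19, SE 0.26, edgeR adjusted p = 0.0384). The anion channels of the duct differed mostly between lines. CFTR stood at 337, 7.67, 30.6 and 85.1 CPM in complete and at 128, 25.1, 84.6 and 2.96 CPM in differentiation medium, down in Em and EPN2 and up in LPN and EPN1 as for KCNE3 (log2 fold change -0.94, SE 1.26, edgeR adjusted p = 0.665). ANO1, the calcium-activated chloride channel, stood at 1.56, 42.9, 13.6 and 92.0 CPM against 1.30, 3.23, 3.14 and 36.8 CPM (-1.76, SE 1.34, edgeR adjusted p = 0.428).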

How the data were processed

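Bulk RNA-seq of 8 PPDO libraries was analysed. For these libraries the authors ran salmon, within an nf-core workflow, on a pig genome with their own annotation, and the deposited values are estimated counts, 1 per gene entry. Their text names gene length scaled counts as input of their DESeq2 analysis, and whether the deposited counts are length scaled is not stated. Not all values above 0 were whole. The 8 entries for reporter transgenes (0.00142% of counts) were left out. Entries with the suffixes -iso and -ext (the latter 2.58% of counts, extensions of up to 10 kb) were summed per gene and rounded. Samples were assigned to media by their titles, and the columns of counts to media and lines by column names. A label that names an endocrine induction medium for all samples was not used for grouping.

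The comparison of media used edgeR 4.0.16 in R 4.3.3 (TMM, its filter on low counts, quasi-likelihood test, Benjamini-Hochberg), with medium as the only term. The standard error (SE) is the log2 fold change divided by the square root of the F statistic. Each line was cultured in both media, so the line pairs libraries. Deviations from the mean of the medium correlated at 0.400 to 0.657 within a line (4 pairs) and at -0.479 to 0.242 between lines (12 pairs). The fit with the line as a block, DESeq2 1.42.0, other scalings and filters and the omission of each library were alternatives. Changes per line used CPM with 0.1 added. The procedure was tested on simulated data. Figures were drawn with matplotlib 3.10.9.

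The genes, lists and families were chosen with earlier results of these data known. Named were genes past the threshold with or without the block, genes above 1 CPM (in full those changed by at least 2-fold in 4 of 4 lines and the 8 with the highest mean), textbook duct channels and KCNJ11, except that some genes are not reported here. Of the 89 gene identifiers, 83 have the same symbol in a table of gene names and 6 are not in it. Spans are from RefSeq on Sscrofa11.1, the pig build in the submitters' processing notes.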

Additional observations from a re-analysis of the deposited data

Results flagged for a closer look

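In 12 of 70 groups of 4 libraries examined (35 genes in each medium), 1 library lay far from the other 3, with a gap above Dixon's 95% critical value. By design the rule marks about 1 of 20 groups of normally distributed values, and over all genes above 1 CPM it marked 2056 of 26390 groups (7.79%), against 17.1% here. The groups share their libraries and are not independent. EPN2 libraries made up 8 of the 12. In complete medium EPN2 stood far above the other lines for KCNC4 (10.1 CPM), KCNK10 (3.93 CPM) and KCNQ5 (79.4 CPM), and in differentiation medium for KCNC4 (5.51 CPM), KCNG3 (1.87 CPM), KCNJ2 (7.12 CPM), KCNJ10 (25.3 CPM) and KCNQ5 (70.3 CPM). The Em library was far above the others for KCNT2 in complete (8.51 CPM) and differentiation medium (1.57 CPM) and for KCNJ5, a G protein-gated inward rectifier, in differentiation medium (4.20 CPM). The LPN library was far above for KCNE5 in complete medium (27.4 CPM).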

How the results depend on the processing

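With 4 lines per medium, the calls depended on the model and on single libraries. In place of 8 potassium channel genes and 1009 genes in all, 18 and 2884 passed in edgeR with the line as a replicate block, 13 and 2884 in DESeq2 without the block, 23 and 5393 in DESeq2 with it, and 4 and 506 without the filter on low counts, which tests more genes. The 2 sets of 2884 genes shared 2043. DESeq2 size factors in edgeR gave 8 and 986, and leaving out extended entries 8 and 1006. Leaving out 1 library in the model of medium alone gave 1 to 7 potassium channel genes and 70 to 1199 genes in all. In each of these fits that tested them, the 8 genes called kept their direction.

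Of the genes above 1 CPM, 21 in place of 35 were above it in each of the 4 libraries of a medium. The number was 35 on library totals, 33 without extended entries and 42 at 0.5 CPM. As alternatives chosen after the data were seen, library totals, DESeq2 size factors and leaving out extended entries gave 9 to 10 genes higher in 4 of 4 lines and 15 lower.

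The direction turned in 12 of 514 alternative values of the named genes, all from leaving out 1 library and none in a gene called in either edgeR fit. Over the 8 fits that left out 1 library, the log2 fold change ranged from -5.28 to 1.84 for KCNC4 (positive without complete medium EPN2), from -0.81 to 0.067 for KCNE3 (positive without complete medium Em), from -4.00 to 0.65 for KCNT2 (positive without complete medium Em), and from -1.62 to 1.41 for KCNQ5, which was positive without complete medium EPN2 and, at 0.22, 0.053 and 0.13, without the Em, LPN and EPN1 libraries in differentiation medium. It ranged from -0.25 to 0.99 for KCNK2, from -0.19 to 0.52 for KCNK6, and from -0.61 to 1.06 for KCNK7, each lowest without differentiation medium EPN2, the omission that also gave -0.19 for KCNG3. For KCNK2 it was -0.096 without complete medium Em. The causes were not tested. At these depths a gene at 3 counts or fewer cannot be told from one that is not read.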
